A study of Mus musculus with 37 samples.

Results

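The 37 cortex arrays fell into 2 classes by the signal of H2-D1, which encodes a classical class I heavy chain of the mouse major histocompatibility complex. The classes were chosen by the log2 value of 1 of its probe sets, the class probe set, which placed 9 arrays below a log2 level of 8 and 28 arrays at 8 or more. They were therefore made from the array values and are not groups of the study. The classes are called low and high arrays here, by the class probe set and not by every probe set of the gene. Each array was taken as the RNA of 1 mouse at 9 wk of age, on a mixed CBA and C57Bl/6 background. The genotypes were wild type (WT), HDAC4het (Hdac4HET, 1 null allele of Hdac4), R6/2 (hemizygous for a transgene expressing a mutant exon 1 fragment of huntingtin) and R6/2::HDAC4het (Dble::R6/2, carrying both). The Hdac4 null allele had been made on another strain background, and both colonies were crossed back to CBA by C57BL/6 F1 mice, so segments of different strains could segregate among littermates of every genotype. R6/2 mice model the expression of a huntingtin fragment rather than of the full protein. Low arrays comprised 3 of 9 WT, 1 of 9 Hdac4HET, 5 of 9 R6/2 and 0 of 10 Dble::R6/2 arrays. Class and genotype were thus unbalanced, and genotype was a term in the model.

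Classical class I molecules, H2-D1 and H2-K1 in these strains, display peptides from inside the cell to CD8 T lymphocytes and are held at the surface by beta-2 microglobulin. Their genes lie in the H2 complex on chromosome 17, which also holds the nonclassical class I genes of the Q, T and M regions, the class II genes and many genes without a part in antigen presentation. CBA and C57BL/6 are known to carry different H2 haplotypes, and class I genes are among the most variable between strains. The H2 haplotype of each mouse is not given in the labels, and its part in the values below was not tested.

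The letters upstream of H2-D1, on which the classes were chosen, are shown beside those of H2-K1, the other classical class I gene and lower in the low arrays. They are 250 bases before the RefSeq start of each gene in the mouse build GRCm38.p6, and the capitals mark the longest run of letters that the pair shares.
H2-D1 (chr17:35262844-35263093, + strand): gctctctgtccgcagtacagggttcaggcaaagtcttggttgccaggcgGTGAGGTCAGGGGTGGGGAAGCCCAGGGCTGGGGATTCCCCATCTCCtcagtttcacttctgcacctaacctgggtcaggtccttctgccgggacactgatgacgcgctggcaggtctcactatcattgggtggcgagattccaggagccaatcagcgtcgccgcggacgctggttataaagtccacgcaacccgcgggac
H2-K1 (chr17:34000334-34000583, - strand): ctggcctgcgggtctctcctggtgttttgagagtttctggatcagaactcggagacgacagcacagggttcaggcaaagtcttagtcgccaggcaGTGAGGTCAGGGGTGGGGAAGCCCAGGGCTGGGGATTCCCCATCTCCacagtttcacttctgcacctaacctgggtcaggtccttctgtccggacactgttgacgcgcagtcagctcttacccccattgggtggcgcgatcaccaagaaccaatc
The shared run was 47 bases long, began 201 bases before the start of H2-D1 and 155 before that of H2-K1, and stood in 3 of 32851 promoter windows of this length (0.00913%), counted on both strands. The letters are those of a reference strain and say nothing about the mice studied.

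On the class probe set, the low arrays ranged from 6.26 to 7.24 with a median of 6.8 and the high arrays from 8.73 to 10.85 with a median of 10.07. The array just inside the limit was Hdac4HET replicate 4 at 7.24, and the array just outside was Hdac4HET replicate 9 at 8.73. Of the 11 probe sets that name H2-D1, 2 separated the classes without overlap, both lower in low arrays, and all 11 were left out of every count between the classes. The other of these was 1451683_x_at, with means of 4.01 ± 0.2 (SD, n = 9) in low and 6.56 ± 0.54 (SD, n = 28) in high arrays. Probe set 1451784_x_at was also lower in the low arrays, with means of 8.72 ± 0.34 (n = 9) and 10.05 ± 0.41 (n = 28). Since these values chose the classes, or belong to the same gene, they are given as a description with no test.

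Some probe sets of H2-D1 ran the other way. Mean low minus high was 0.41 on 1452544_x_at, 0.28 on 1425614_x_at and 0.25 on 1427651_x_at. On the probe sets that were lower it ran from -3.27 to -0.01. The largest rise, 3.46, was on 1450170_x_at. Low arrays lay between 7.41 and 8.67 on it. The high arrays divided: 20 lay between 3.57 and 4.19, whereas 8 lay between 5.52 and 7.61. The raised arrays were 4 Hdac4HET (replicates 5, 7, 8 and 9), 1 R6/2 (replicate 5) and 3 Dble::R6/2 arrays (replicates 5, 8 and 9), and none of the 6 high WT arrays was among them. On the class probe set, these 8 arrays lay between 8.73 and 10.08 and the remaining 20 between 9.81 and 10.85. Together the 2 probe sets thus placed the arrays in 3 sets of 9, 8 and 20. This second division was noticed in the values. Below it is used to describe levels and for 1 fit without the 8 raised arrays.

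**Figure D1:**
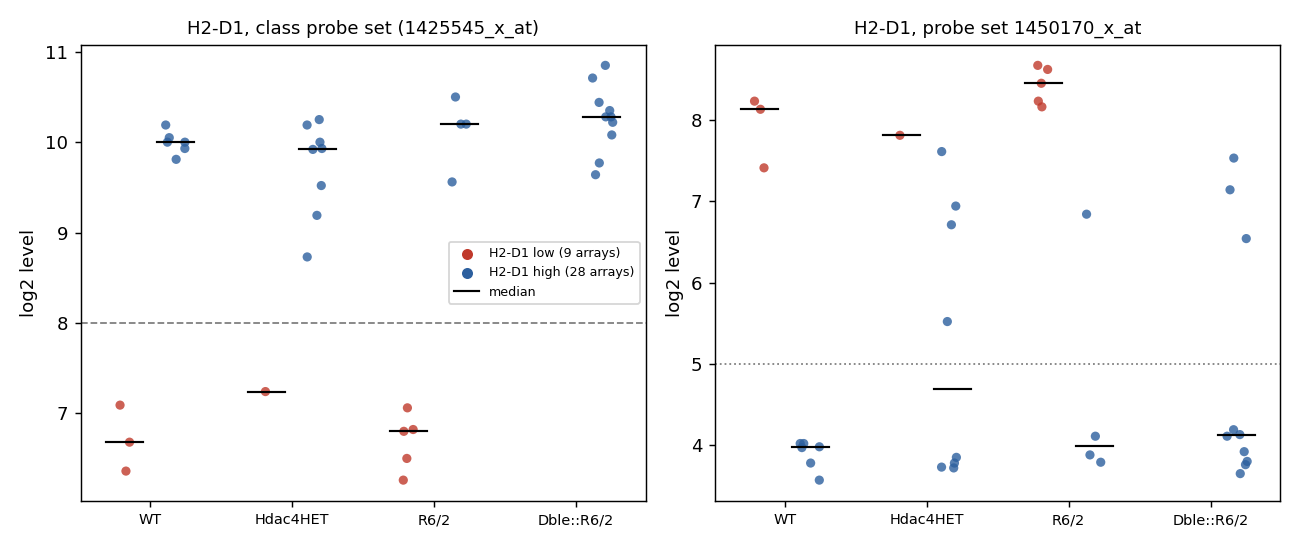
Log2 level of H2-D1 on the class probe set (left, dashed line at the class limit of 8) and on 1450170_x_at (right, dotted line at 5) in each of the 37 arrays by genotype. Points are arrays, coloured by class, and bars are medians. The 9 low arrays lie at 6.26 to 7.24 on the left and at 7.41 to 8.67 on the right, where 8 high arrays lie at 5.52 to 7.61.

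Array medians lay between 6.16 and 6.21 and arrays of 1 genotype correlated at 0.993 to 0.998. Low arrays came from 5 female-labelled and 4 male-labelled mice and high arrays from 12 and 16. Sex-linked genes went against the label on 0 low and 6 high arrays, and the olfactory bulb markers lay above every WT array on 1 low and 7 high arrays. Their part in the results was not tested beyond the fits without these arrays given with the alternatives.

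Low and high arrays differed at 102 (0.227%) of the 45026 probe sets tested, at a Benjamini-Hochberg adjusted p under 0.05 in limma and a change above 1.3-fold. Of these, 51 (0.113% of those tested) were higher and 51 (0.113%) were lower in low arrays. Named by 1 symbol each were 73 of them, which stood for 64 genes, while 11 carried several symbols and 18 none. Without the limit on size, 205 probe sets (0.455%) passed. In most of the 102 the levels of the classes overlapped, and levels were apart at only 3 probe sets (0.00666%). One of these was H2-K1 and the others, 1440305_at and 1441797_at, had no symbol.

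H2-K1, the other classical class I gene, was the only named gene whose levels did not overlap between the classes. On probe set 1451931_x_at its log2 level was 6.8 to 7.53 with a median of 7.17 in low arrays and 7.87 to 10.28 with a median of 9.56 in high arrays. No low array reached the lowest high array. The difference, low minus high with genotype in the model, was -2.27 (standard error 0.17, adjusted p = 6.78e-12, limma). A second H2-K1 probe set, 1425336_x_at, ranged from 6.89 to 9.25 in low and from 8.47 to 10.54 in high arrays. It was lower by a log2 difference of -1.93 (standard error 0.24, adjusted p = 5.95e-06), and the classes overlapped because WT replicate 1 at 9.13 and R6/2 replicate 1 at 9.25 lay among the high arrays. H2-K1 and H2-D1 are close relatives in sequence, and probe set 1424948_x_at names both. Its means were 7.29 ± 0.3 (SD, n = 9) in low and 7.52 ± 0.26 (SD, n = 28) in high arrays, and the classes overlapped. How far the other H2-K1 probes share transcripts with H2-D1 is not known from the annotation used. The lower level of H2-K1 is therefore not known to be independent of the gene that chose the classes.

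Probe sets 1440305_at and 1441797_at separated the classes as fully as H2-K1. On 1440305_at, low arrays lay between 4.98 and 5.71 and high arrays between 6.75 and 8.73, with a difference of -2.58 (standard error 0.15, adjusted p = 1.44e-14). For 1441797_at the ranges were 5.25 to 6.15 and 6.88 to 8.26, with a difference of -2.03 (standard error 0.13, adjusted p = 2.74e-13). The annotation used gives neither a gene. A further probe set without a symbol, 1458719_at, had the largest rise, 3.51 (standard error 0.57, adjusted p = 0.000463), from 4.51 to 8.68 in high arrays to 7.99 to 9.62 in low arrays.

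The genes that differed between the classes lay mostly on the chromosome of H2-D1. Of the 73 called probe sets with a gene position, 43 (58.9%) were on chromosome 17, which held 4.28% of all tested probe sets with a position. These 43 stood for 35 genes and made up 2.89% of the 1487 probe sets of that chromosome. Within 10 Mb of H2-D1, 29 of 583 probe sets were called (4.97%), 14 higher and 15 lower in low arrays. Within 1 Mb the count was 2 of 149 (1.34%), within 5 Mb 20 of 336 and within 20 Mb 38 of 983. The share was not highest next to H2-D1: it was 7.09% in the 5 Mb on the side towards the chromosome's start and 21.1% (8 of 38) between 5 and 10 Mb on the other side, while more than 20 Mb beyond H2-D1 on that side 1 of 383 was called. All but Trmt61b, at 36.29 Mb from H2-D1, fell in 1 stretch of 42.16 Mb.

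**Figure D2:**
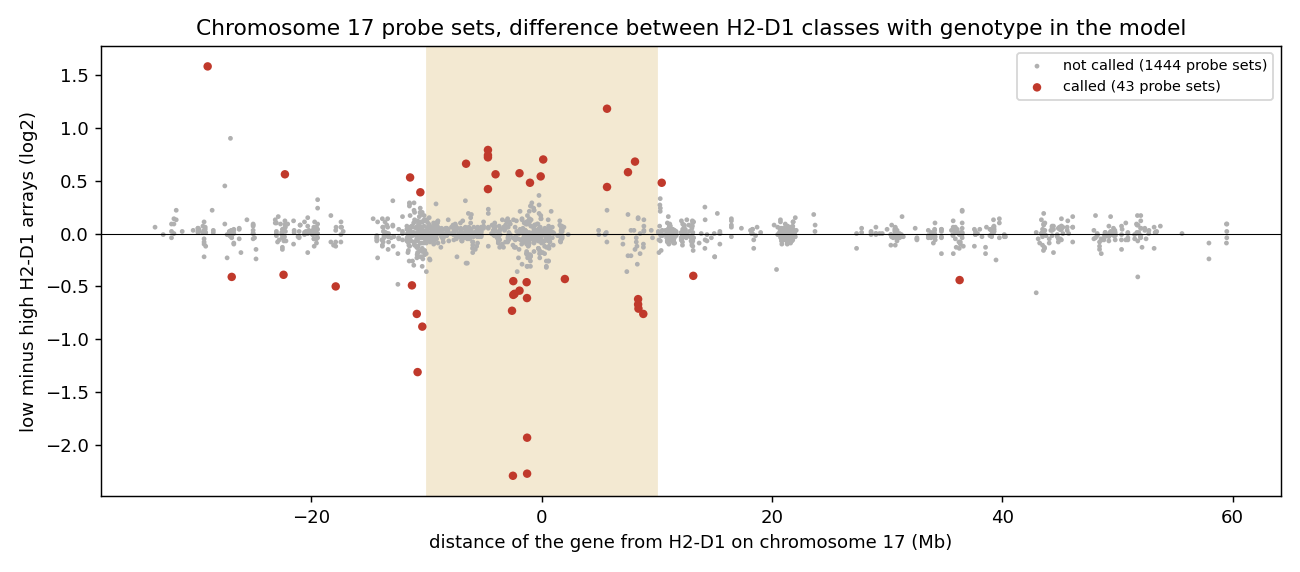
Difference between low and high arrays (log2, genotype in the model) for the 1487 tested chromosome 17 probe sets against the distance of their gene from H2-D1 in Mb. Grey points were not called, red points (43) were called, and the shaded band covers 10 Mb on each side. Called probe sets rise and fall on both sides of H2-D1, and 1 lies beyond 20 Mb on the right.

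Lower genes of this stretch included Enpp5, a member of the ectonucleotide pyrophosphatase family. Its level was 9.92 to 10.32 (median 10.05) in low and 10.22 to 11.16 (median 10.91) in high arrays. The difference was -0.76 (standard error 0.07, adjusted p = 2.49e-08), and 1 high array, of an Hdac4HET mouse, lay within the range of the low arrays. Zfp871, a zinc finger gene, ranged from 4.5 to 6.97 in low and from 6.14 to 8.39 in high arrays, a difference of -2.29 (standard error 0.27, adjusted p = 3.64e-06). Slc25a27, a mitochondrial carrier also known as UCP4, fell on both of its called probe sets, by 0.62 and 0.67. Cyp39a1, an oxysterol hydroxylase, fell by 0.71, and 2 further cytochrome genes, Cyp4f14 and Cyp4f15, fell by 0.57 and 0.73. Caskin1, a synaptic scaffold gene, fell by 1.31 (standard error 0.2, adjusted p = 0.000161) on its called probe set.

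Higher genes of the stretch included Glo1, glyoxalase I, which clears methylglyoxal. All 4 of its called probe sets rose, by 0.42 to 0.79. On 1424109_a_at the levels were 10.56 to 11.25 (median 10.95) in low and 9.9 to 10.88 (median 10.2) in high arrays, with a difference of 0.72 (standard error 0.1, adjusted p = 5.12e-05). Mmut, methylmalonyl-CoA mutase of mitochondria, rose by 0.44 on its brighter probe set (9.5 to 9.86 in low, 9.12 to 9.69 in high arrays, adjusted p = 5.12e-05). It also rose by 1.18 on a probe set near the lowest levels of the table, where the size of a difference is least certain. Mapk14, the p38 alpha kinase, rose by 0.66, Wtap, a subunit of the RNA methylation complex, by 0.56 and Tmem181a, 29.01 Mb from H2-D1, by 1.58 (standard error 0.29, adjusted p = 0.00218). Some genes gave unlike answers on different probe sets: of the zinc finger gene Zfp81, 1444076_at rose by 0.57 and 1457685_at fell by 0.54.

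Of the class I list, 9 genes besides H2-D1 were measured on probe sets with 1 symbol. One was higher, 2 were lower and the median difference of the 9 was -0.02, beside 18 higher and 20 lower of 18192 genes and a median of 0 over all genes, each gene read on its brightest probe set. H2-K1 and H2-M3, which presents formylated peptides, were the lower members. H2-M3 lay between 6.13 and 6.77 in low and between 6.58 and 7.42 in high arrays (difference -0.43, standard error 0.08, adjusted p = 0.00363). H2-Q5, a Q region gene 0.13 Mb from H2-D1, was the higher one, with levels of 4.22 to 4.89 against 3.38 to 4.38 (difference 0.7, standard error 0.1, adjusted p = 6e-05). H2-Q2, H2-Q10, H2-T3, H2-T24, H2-Bl and H2-M9 did not pass, with differences between -0.18 and 0.21. Probe sets shared by several class I genes were called as well and are not assigned to 1 gene: the set of H2-T9, H2-T22 and H2-T10 at -0.51, that of H2-Q6 and H2-Q8 at -0.77 and that of H2-T-ps and H2-T23 at -0.46.

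Genes that load class I with peptide did not pass. Of 14 measured, 0 were called, among them B2m, the light chain, at 0.25 (standard error 0.07, adjusted p = 0.104), Psmb9, an immunoproteasome subunit, at 0.21 (adjusted p = 0.34), and the peptide transporters Tap1 at -0.09 and Tap2 at 0.11. Pdia3, a chaperone of the loading complex on chromosome 2, had a difference of 0.03 on its brightest probe set and was called on a dimmer one at 0.63. Beside 18 higher and 20 lower of 18192 genes, class II had 1 called of 11. This was H2-Ob, a chain of a molecule that modulates class II loading, with levels of 3.34 to 4.46 in low and 3.05 to 3.62 in high arrays and a difference of 0.48 (standard error 0.08, adjusted p = 0.00033). The peptide-presenting class II genes H2-Aa, H2-Ab1 and H2-Eb1 had differences of -0.26, -0.22 and -0.21 that did not pass (adjusted p from 0.785 to 0.98). Class III and flanking genes of the H2 region all lay on chromosome 17, where 2.89% of probe sets were called. Of 60 measured, 1 was higher and 1 lower. These were Aif1, which encodes the microglial protein IBA1, and Vps52, a subunit of a vesicle tethering complex.

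Aif1 is also a marker of microglia, and it lies 0.09 Mb from H2-D1. Its level was 7.9 to 8.38 (median 8.24) in low and 7.41 to 7.98 (median 7.64) in high arrays, a difference of 0.54 (standard error 0.07, adjusted p = 3.05e-05). Over all 18192 genes, 18 were higher and 20 lower. Aif1 was the only 1 of 18 microglia markers called, and the median difference of these markers was 0.03. Their mean level ranged from 8.26 to 8.64 in low and from 8.25 to 8.66 in high arrays. No marker of lymphocytes (12 measured), astrocytes (15), oligodendrocytes (14), endothelium and pericytes (14), choroid plexus, meninges and blood (14), olfactory bulb (19), striatum (13) or cortical neurons (18) was called on its brightest probe set, nor was any of 25 immediate early genes. Slc1a2, the glutamate transporter of astrocytes on chromosome 2, was called on a dimmer probe set at 0.59. Lymphocyte markers had mean levels of 4.51 to 4.75 in low and 4.48 to 4.78 in high arrays. In whole cortex, fewer cells of a type and less RNA per cell cannot be told apart.

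**Figure D3:**
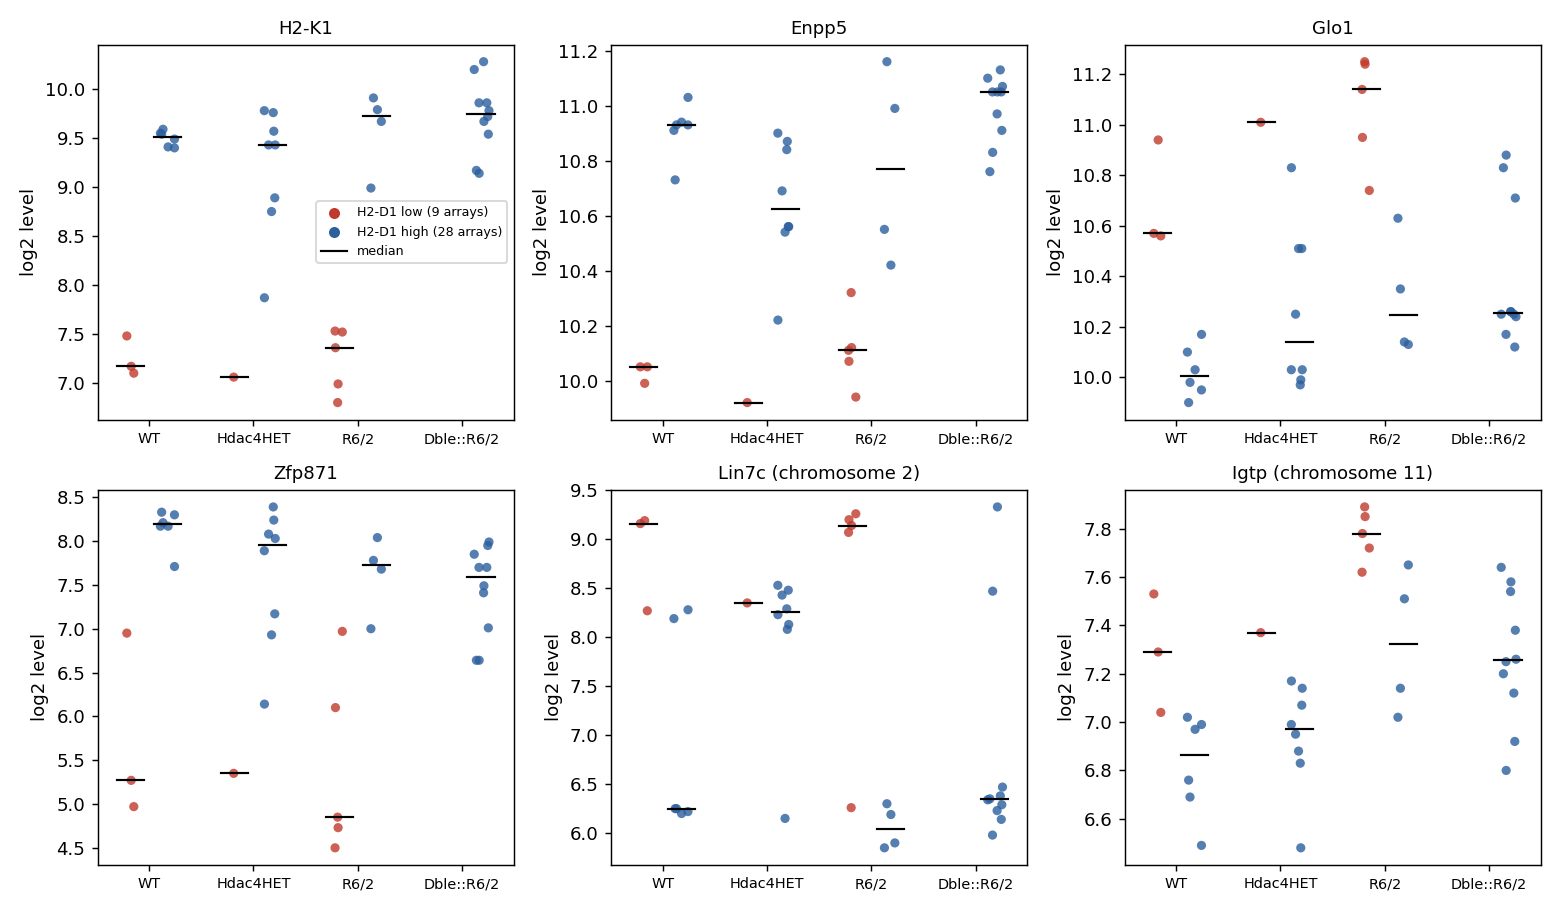
Log2 level of H2-K1 (1451931_x_at), Enpp5, Glo1 (1424109_a_at), Zfp871, Lin7c and Igtp in every array by genotype, with low arrays in red, high arrays in blue and medians as bars. H2-K1 separates the classes in each genotype that holds both, whereas Lin7c is high on 8 of 9 low arrays and also on most Hdac4HET arrays of the high class.

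In the list of interferon-stimulated genes, none of which lies on chromosome 17, 2 of 23 measured were called, both higher in low arrays, and the median difference was 0.16, beside 18 higher and 20 lower of 18192 genes and a median of 0 over all genes. The called members were Igtp, an immunity-related GTPase on chromosome 11, and Ifit3, an antiviral protein gene on chromosome 19. Irgm2, a GTPase of the same family 0.02 Mb from Igtp and not in the list, was called as well. Igtp was 7.04 to 7.89 (median 7.62) in low and 6.48 to 7.65 (median 7.04) in high arrays, a difference of 0.45 (standard error 0.1, adjusted p = 0.0131). For Irgm2 the levels were 6.04 to 6.95 and 5.27 to 6.6, with a difference of 0.51 (standard error 0.09, adjusted p = 0.00153), and for Ifit3 7.24 to 8.26 and 6.55 to 7.83, with 0.43 (standard error 0.09, adjusted p = 0.0054). The classes overlapped for all of them. Without WT replicate 1, Igtp was no longer called (0.41, adjusted p = 0.0614), and without a term for genotype Ifit3 was not (0.4, adjusted p = 0.219). Rtp4, Ifit1 and Usp18 had differences of 0.45 each that did not pass (adjusted p = 0.103, 0.266 and 0.35), and Mx1, Mx2 and Stat2 had differences between -0.01 and 0.

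The letters upstream of Igtp and Irgm2 are shown because these neighbours rose together. They come from the same RefSeq table and build, and the capitals mark the longest run that the pair shares.
Igtp (chr11:58199306-58199555, + strand): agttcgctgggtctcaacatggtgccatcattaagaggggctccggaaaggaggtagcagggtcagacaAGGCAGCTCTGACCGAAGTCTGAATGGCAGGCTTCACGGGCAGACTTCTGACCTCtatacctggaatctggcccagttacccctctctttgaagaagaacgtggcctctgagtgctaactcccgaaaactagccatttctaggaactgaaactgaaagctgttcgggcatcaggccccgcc
Irgm2 (chr11:58214727-58214976, + strand): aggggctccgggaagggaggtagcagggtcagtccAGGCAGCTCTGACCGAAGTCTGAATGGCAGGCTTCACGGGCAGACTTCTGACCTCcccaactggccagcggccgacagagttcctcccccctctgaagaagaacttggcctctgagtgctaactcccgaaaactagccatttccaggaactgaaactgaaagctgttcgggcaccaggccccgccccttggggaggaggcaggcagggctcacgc
This run was 55 bases long and stood in 2 of 32851 windows (0.00609%). In R6/2 against WT, which differ in their number of low arrays, Igtp was higher by 0.6 (adjusted p = 0.000218) without and by 0.5 (adjusted p = 0.000197) with a term for class. Irgm2 was higher by 0.71 without and 0.59 with the term and Ifit3 by 0.61 and 0.52, and all 3 stayed called.

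A second stretch of called genes lay on chromosome 2, with 19 called of 2806 probe sets (0.677%). Of these, 18 for 17 genes lay within 20.08 Mb, where 354 probe sets were tested, and 13 of the 18 rose. Lin7c, a scaffold protein gene of synapses and cell junctions, rose by 1.92 (standard error 0.41, adjusted p = 0.0127), from a median of 6.35 in high to 9.14 in low arrays. Trp53bp1, a DNA damage response gene, rose by 1.65 and 1.76 on its 2 called probe sets (adjusted p = 0.0432 and 0.0336). On 1442316_x_at the call was lost in 20 of 37 fits that left out 1 array. Tmem87a, which encodes a Golgi membrane protein, fell by 1.69 (standard error 0.32, adjusted p = 0.00388) and Bloc1s6, a subunit of a complex for lysosome-related organelles, fell by 1.48 (standard error 0.31, adjusted p = 0.00885), with no call without WT replicate 7 (adjusted p = 0.0564). Rbm45, an RNA-binding protein gene elsewhere on the chromosome, fell by 1.08.

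Chromosome 2 genes did not follow the classes on every array. On chromosome 17, too, the levels of the classes overlapped at every called probe set except H2-K1 1451931_x_at. R6/2 replicate 6, a low array, had Lin7c at 6.26 and Tmem87a at 9.75, both among the high arrays, while the other low R6/2 arrays had Lin7c at 9.07 to 9.26. Among the high arrays, Lin7c reached 9.33. Dble::R6/2 replicate 10 had Tmem87a at 9.06 and Rbm45 at 7.98, under the 9 other Dble::R6/2 arrays. The number of called chromosome 2 probe sets ran from 10 (without WT replicate 7) to 28 (without R6/2 replicate 6) when 1 array was left out. Over the same fits, that of chromosome 17 ran from 38 to 45. In the Hdac4HET arrays, the 1 low array differed from the high ones by 0.31 on Lin7c and by -0.39 on Tmem87a.

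**Figure D4:**
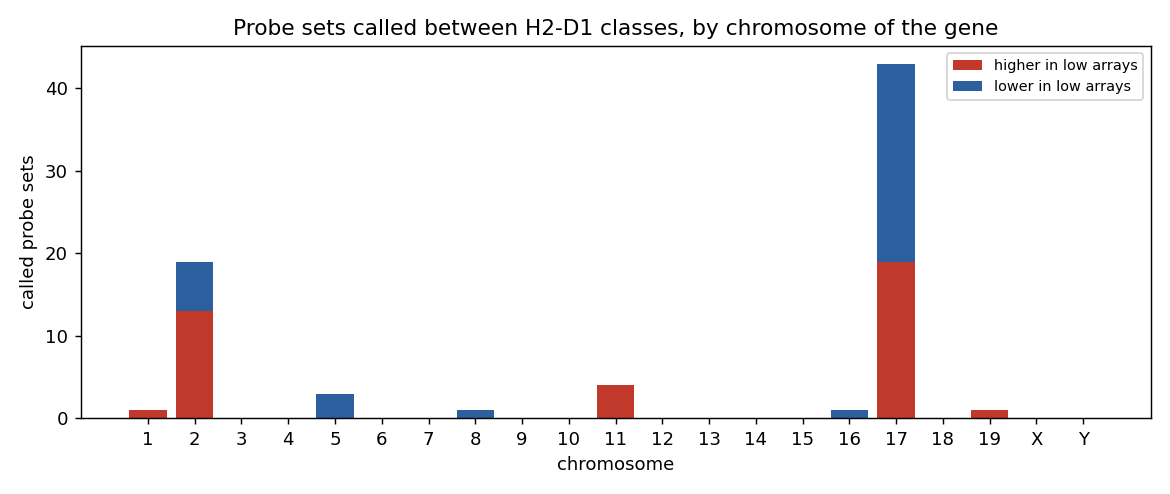
Number of called probe sets by chromosome of their gene, stacked as higher (red) and lower (blue) in low arrays. Chromosome 17 holds 43 and chromosome 2 holds 19, and no other chromosome holds more than 4.

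The other called genes were few and scattered. Chromosome 5 held 3, which were 1500011B03Rik, Msi1, an RNA-binding protein of neural progenitors, and Dynll1, a dynein light chain, all lower and within 0.55 Mb of each other. 1500011B03Rik had the largest difference, -1.47 (standard error 0.25, adjusted p = 8e-04). Chromosome 11 held 4, Igtp and Irgm2 with Cd300lf at 0.47 and Eml6 at 0.96, the last not called without WT replicate 1 (0.88, adjusted p = 0.0602). Single genes were Txndc9 on chromosome 1, Sfrp1, a secreted Wnt antagonist, on chromosome 8 at -0.61, Pigz on chromosome 16 at -0.73 and Ifit3. All remaining chromosomes held 0 called probe sets.

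Arrays raised on 1450170_x_at also had medians between those of the others on the called genes of chromosome 17. For Glo1 on 1451240_a_at, the low arrays lay at 10.46 to 11.31, the 8 raised high arrays at 10.29 to 10.88 and the 20 remaining high arrays at 9.81 to 10.29. On 1458719_at the 3 ranges were 7.99 to 9.62, 7.03 to 8.68 and 4.51 to 4.98. For H2-K1 on 1451931_x_at they were 6.8 to 7.53, 7.87 to 9.54 and 9.4 to 10.28. The median of the 8 raised arrays lay between the medians of the other sets at 82 of all 102 called probe sets. This held at all 43 on chromosome 17 and at 13 of 30 on other chromosomes, where chromosome 2 had 9 of 19. The share over all tested probe sets was not computed. The 8 arrays were themselves picked on a probe set of H2-D1, a chromosome 17 gene. With these 8 arrays left out, a fit chosen after seeing the data, 99 probe sets (0.22%) were called, 88 of them among the 102, and 32 lay within 10 Mb of H2-D1.

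The difference between the classes could be read within WT, with 3 low and 6 high arrays, and within R6/2, with 5 and 4, which share no array. Within WT 29 probe sets (0.0644%) and within R6/2 23 (0.0511%) were called, and 8 were called in both. H2-K1 on 1451931_x_at differed by -2.24 (standard error 0.08, adjusted p = 3.88e-08) in WT, where the 3 low arrays read 7.1, 7.17 and 7.48. In R6/2, where the 5 low arrays read 6.8, 6.99, 7.36, 7.52 and 7.53, it differed by -2.35 (standard error 0.19, adjusted p = 0.000206). Glo1 on 1451240_a_at differed by 0.81 in each (adjusted p = 0.00534 and 0.0433), H2-Q5 by 0.8 and 0.77 (adjusted p = 0.0345 and 0.0441) and Wtap by 0.54 and 0.67 (adjusted p = 0.0433 and 0.0174). Enpp5 differed by -0.88 in WT (adjusted p = 1.03e-05) and by -0.67 in R6/2, where it did not pass (adjusted p = 0.171). The Hdac4HET arrays held 1 low array, so the spread came from the high arrays alone and little could be called. There limma called 0 probe sets, and 1939 of 45026, under 5% of them, had an unadjusted p under 0.05. Igtp, Irgm2 and Ifit3 passed in no single genotype, with differences of 0.33 to 0.6 in WT and R6/2.

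**Figure D5:**
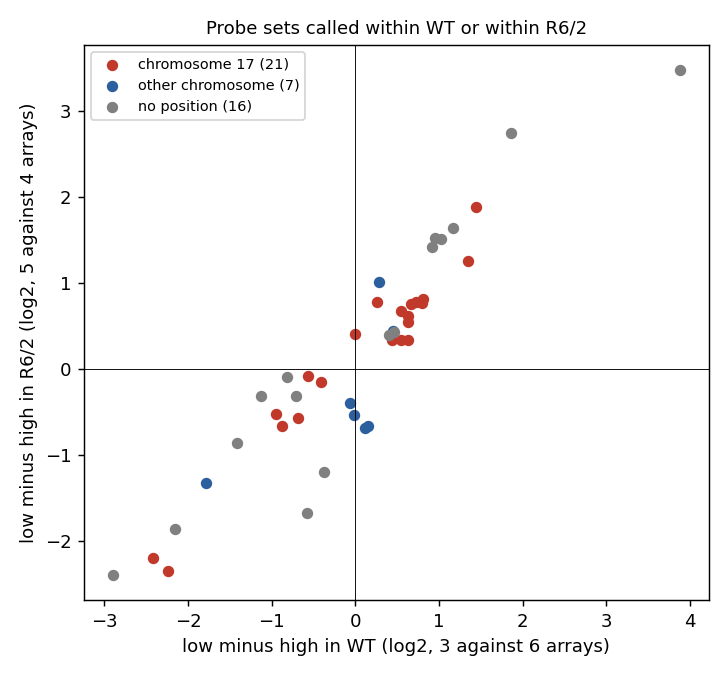
Difference between low and high arrays within R6/2 against that within WT (both log2) for the 44 probe sets called within either genotype. Red points are on chromosome 17 (21), blue on other chromosomes (7) and grey have no position (16). The 18 chromosome 17 probe sets called in WT all have the same sign in R6/2.

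Of the 23 probe sets called within R6/2, 21 had the same sign within WT, and 8 were called there the same way. All 9 of these on chromosome 17 had the same sign in WT, against 3 of 5 on other chromosomes, where Cap1, an actin regulator on chromosome 4, differed by -0.69 in R6/2 and 0.11 in WT. All 29 called within WT had the same sign within R6/2, of which 18 lay on chromosome 17. A test of whether the difference between classes differed from R6/2 to WT called 0 of 45026 probe sets (0%), while 1841 had an unadjusted p under 0.05 and the lowest adjusted p was 0.939 (limma). Differences between the 2 genotypes in the effect of class were therefore not detectable with these arrays.

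The comparisons of genotypes were fitted without and with a term for class, since the classes were unbalanced between them. Dble::R6/2 against R6/2, with 0 of 10 low arrays against 5 of 9, gave 121 called of 45037 probe sets (0.269%) without a term for class and 10 (0.0222%) with it. Of the 121, 9 stayed called, 112 were lost and Gin1 was gained. Among the 112 was the class probe set of H2-D1, which is kept in comparisons of genotypes (2.05 without, 0.27 with the term). Its loss follows from how the classes were made. With only the high arrays 8 were called (0.0178%). These counts also moved with single arrays: leaving out 1 array gave 31 (without R6/2 replicate 3) to 218 (without Dble::R6/2 replicate 2) calls without the term and 6 (without R6/2 replicate 5) to 35 (without R6/2 replicate 4) with it. Over the 121, the median size was 0.45 without the term, 0.42 with it and 0.46 in high arrays alone. The median standard error rose from 0.11 to 0.13 and 0.15, and the sign was the same at 121 and 120 of 121. Sizes of single lost probe sets moved either way with the term, as for Jmjd4 (-0.42 to -0.28) and Rian (0.44 to 0.57). Why calls were lost was not tested.

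Only 5 of the 121 were also called between the classes, the H2-D1 probe sets left aside. A smaller size with the term was largely fixed in advance for these. They differ between the classes, and of this pair of genotypes only R6/2 held low arrays. Enpp5 was higher in Dble::R6/2 by 0.58 (adjusted p = 0.0329) without and by 0.16 (standard error 0.09, adjusted p = 0.477) with the term. The values of Mmut on its dim probe set were -0.89 and -0.23, of H2-Ob -0.41 and -0.14, of Cd2ap, an adaptor protein gene, -0.75 and -0.43, and of 1441797_at 1.38 and 0.26, none of them called with the term. Those that stayed called in both fits were Prm1, a sperm protamine (2 probe sets, 1.83 and 1.62 without, 1.87 and 1.6 with the term), Pam, a peptide-amidating enzyme (0.73 in both), Hdac4 itself (-0.69 and -0.63, then -0.67 and -0.63), Lipa, lysosomal acid lipase, Wdr53, Ampd2 and 1441333_at.

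Counts of the other genotype comparisons moved less with the term. R6/2 against WT gave 2737 called (6.08%) without and 2710 (6.02%) with it, 2595 of them shared. Among the 2737 were 29 of the probe sets called between classes, and 9 of these were lost with the term, among them Wtap and 3 of Glo1. With the term, Wtap (0.36, adjusted p = 0.00993) and these Glo1 probe sets (0.33 to 0.36, adjusted p from 0.000154 to 0.0183) missed only the size limit. A smaller size was largely fixed in advance for them, since they rose in low arrays and R6/2 held more low arrays than WT. Mas1, a receptor gene 22.42 Mb from H2-D1, fell in R6/2 by 0.85 without and 0.76 with the term, and it was also lower by a difference of -0.39 in low arrays. Hdac4HET against WT gave 131 (0.291%) without and 112 (0.249%) with the term, and none of the 131 was called between classes. Of the 131, 124 were higher in Hdac4HET. Leaving out 1 array gave 73 (without Hdac4HET replicate 1) to 192 (without Hdac4HET replicate 2) without the term. Except for Dble::R6/2 replicate 10, the arrays with raised olfactory bulb markers were all Hdac4HET, replicate 1 among them. The part of these markers in this comparison was not tested. With only high arrays this comparison gave 65 (0.144%) and R6/2 against WT 2623 (5.82%).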

How the data were processed

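Affymetrix arrays were hybridised with cortex RNA, and each of the 37 arrays was taken as 1 mouse. The authors deposited a table of log2 values by probe set and array. The sources used here do not give its probe summary or normalization, and no further scaling was applied. Precision is limited by the number of arrays. A single gene symbol was listed for 34945 of 45037 probe sets, several for 932 and none for 9160, and only those with 1 symbol were named as genes. Positions came from the RefSeq table of GRCm38.p6 and were used for chromosome and distance only.

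The class of an array (low or high) was read from the class probe set of H2-D1 at a log2 limit of 8. Genotype and class were fitted in 1 linear model over all arrays in R 4.3.3 with limma 3.58.1 (lmFit and eBayes with a trend), and the 11 H2-D1 probe sets were left out, except in comparisons of genotypes. A probe set was called at a Benjamini-Hochberg adjusted p under 0.05 over all tested and a change above 1.3-fold. Adjusted p values in the text come from limma. Mean ± SD are of log2 levels. The fits were tested on simulated data, and figures were drawn with Python 3.11.15 and matplotlib 3.10.9.

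The classes, gene lists and tests were chosen with earlier results of these data known. Named were the H2-D1 probe sets, the 12 largest rises and falls, up to 20 called genes within 10 Mb of H2-D1, up to 4 called members or otherwise 2 members of each list, and the lowest p of the interaction. Named after their values were seen were H2-K1 1451931_x_at and other less bright probe sets, probe sets without a symbol or with several, Irgm2, Wtap, Mas1, Cap1, Cd2ap, the list members that did not pass and the genes of the genotype comparisons. Alternatives were other normalization, filters, class limits, covariates, subsets of arrays and each array left out in turn. Labels give no array batch. Gene lists of H2 classes, antigen loading, interferon response, cell types and immediate early genes are all reported.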

Additional observations from a re-analysis of the deposited data

Results flagged for a closer look

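Within each genotype and class of 4 to 10 arrays, 38 named probe sets were searched for an array far from the others by Dixon's criterion. Of 190 sets of values, 23 (12.1%) held such an array. For independent sets the criterion gives about 1 in 20. These sets share arrays and neighbouring genes, so the shares cannot be compared directly.

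Many of them were arrays that stood apart on chromosome 2 genes. R6/2 replicate 6, a low array, read 6.26 on Lin7c, 3.33 on A530058N18Rik and 5.67 on Ano3, below the other low R6/2 arrays. Dble::R6/2 replicate 10 read 5.67 on Trp53bp1, 4.4 on A530058N18Rik, 4.56 on Spata5l1 and 7.63 on Pdia3, above the other Dble::R6/2 arrays. The same array read 9.06 on Tmem87a, 6.19 on Bloc1s6 and 7.98 on Rbm45, below them. Hdac4HET replicate 8 read 6.15 on Lin7c, where the other high Hdac4HET arrays read 8.08 to 8.53.

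On chromosome 17, R6/2 replicate 5 read 10.7 on Tmem181a, above the other high R6/2 arrays at 9.11 to 9.26, and is among the arrays raised on 1450170_x_at. WT replicate 8 read 7.71 on Zfp871, Dble::R6/2 replicate 8 read 7.16 on Cyp4f15, R6/2 replicate 9 read 5.88 on Slc25a27 and WT replicate 4 read 6.25 on Rsph1, each below its set. Zfp81 read 5.92 on Dble::R6/2 replicate 7 and 6.52 on R6/2 replicate 1, both below.

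Of the remaining chromosomes, 1500011B03Rik read 10.7 on WT replicate 4 and 10.05 on R6/2 replicate 8, both above their sets. Pigz read 6.9 on WT replicate 5, below, and 8.26 on R6/2 replicate 4, above. Ifit3 read 6.55 on Hdac4HET replicate 3, where the other high Hdac4HET arrays read 7.07 to 7.23.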

How the results depend on the processing

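The 102 calls between classes and the 29 within 10 Mb of H2-D1 stayed within 1.5 times (69 to 137 and 22 to 38) under 15 and 14 of 20 further settings. The exceptions were as follows. Requiring no size gave 205 and 54, and probe sets above the median level gave 19 near H2-D1. A class limit of 7, which moves low arrays among the high ones, gave 1 and 0, and within WT, R6/2 and Hdac4HET alone the counts were 29, 23 and 0, of which 14, 7 and 0 near H2-D1. All 38 called named probe sets kept their direction, but 38, 38, 35 and 29 lost their call at the limit of 7 and within Hdac4HET, R6/2 and WT alone. Leaving out 1 array ended 6 calls: Trp53bp1 (1442316_x_at) in 20, Spata5l1 and Ano3 in 14 each and Igtp, Eml6 and Bloc1s6 in 1 of 37 fits. The methods' t-test had 171 probe sets at its threshold after Benjamini-Hochberg adjustment, 79 of them past the size limit, and 3048 without adjustment. Leaving out 1 array gave 80 (without R6/2 replicate 4) to 113 calls and 28 to 31 near H2-D1. At a class limit of 9, Hdac4HET replicate 9 (8.73) joined the low arrays, so the interaction test took in Hdac4HET besides R6/2 and WT. This wider test gave 1 call (adjusted p = 0.0153, limma). In the interaction at the limit of 8, leaving out 1 array gave 0 to 0. What the replicate numbers stand for is not given, and over whole arrays no pairing by them was seen. The correlation of same-numbered arrays' deviations had a median of 0.01, and 3 of 37 arrays matched best with their own number. A pairing that touches few probe sets could be missed by this. With the replicate number as a block, the class calls were 137 and 38 near H2-D1, and Dble::R6/2 against R6/2 had 20. That comparison gave 121 calls, 10 with the class as a covariate and 8 in high arrays only. Leaving out 1 array it gave 31 (without R6/2 replicate 3) to 218 (without Dble::R6/2 replicate 2), and with the class term, a series added after seeing the data, 6 (without R6/2 replicate 5, 7 or Dble::R6/2 replicate 9) to 35 (without R6/2 replicate 4). Hdac4HET against WT gave 65 in high arrays only and 73 (without Hdac4HET replicate 1) to 192, and R6/2 against WT 2648 to 2909. The cause of these changes was not tested.

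Some genes that did not pass changed sign. In WT alone, Aqp1 had a difference of 0.13 and Egr4 of 0.09. In Hdac4HET alone, Rgs9 had 0.2, Adcy5 0.13, Junb 0.18 and 4933401B06Rik -0.09. In R6/2 alone, Sox10 had 0.03, Rgs3 0.12, Tceanc 0.25, Zfp110 0.03, Cep95 0.19 and 4933401B06Rik -0.13. At the limit of 7, Tceanc had 0 and Cep95 0.07. Cep95, at -0.02 over all arrays, ran from -0.06 to 0.03 with 1 array left out and was above 0 without WT replicate 1. It had 0 without WT replicate 6, where 4933401B06Rik had -0.01.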

Other observations

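Several probe sets called between the classes carry the symbols of more than 1 gene. Those of the dynein light chain genes Dynlt1a, Dynlt1c and Dynlt1f rose in low arrays, by 1.19 (standard error 0.22, adjusted p = 0.00234, limma) on 1453473_a_at, by 1.13 on 1428116_a_at and by 0.39 on 1455748_at. The probe set shared by Tmem181a and its pseudogenes rose by 1.33, in the direction of Tmem181a alone. Those shared by the ribosomal protein gene Rps2 and similar loci rose by 0.39 and 0.44, beside 0.39 on the probe set of Rps2 alone, at levels of 12.88 ± 0.15 (SD, n = 28) in high and 13.21 ± 0.1 (n = 9) in low arrays. The probe set of the zinc finger genes Zfp960 and Zfp97 was lower by a difference of -0.81 and that of Tulp4 and Gm2808 by -0.86.

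In the test of whether the class difference changed between R6/2 and WT, the lowest p values belonged to genes off chromosome 17. Rgs3, a regulator of G protein signalling, differed by 0.12 in R6/2 and -0.19 in WT (adjusted p = 0.939). Tceanc on the X chromosome differed by 0.25 and -0.33 and Zfp110 on chromosome 7 by 0.03 and -0.5, both at the same adjusted p. None passed.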
